A study of Vitis vinifera with 6 samples.

Results

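Stilbene synthase transcripts were close to the bottom of the expression range in the terminal buds sampled from ‘Jingyanjing’, a diploid grapevine (2X), and from its autotetraploid (4X), and their known activator MYB14 was not. The genes described are the rows of the expression table with identifiers from VIT_16s0100g00750 to VIT_16s0100g01200 (39 rows, the chromosome 16 cluster) and from VIT_10s0042g00840 to VIT_10s0042g00930 (10 rows, the chromosome 10 cluster). The regulators MYB14 (VIT_07s0005g03340) and MYB15 (VIT_05s0049g01020) were added, which gave 51 of the 29971 genes listed. The chromosome is that in the identifier, and the rows of both ranges were taken as stilbene synthases from their place in these ranges. The table carries no gene names, so whether each row is an intact gene was not tested.

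Stilbene synthase joins a coumaroyl-CoA with malonyl-CoA units to make resveratrol, the parent compound of the stilbene phytoalexins of grapevine. Chalcone synthase (CHS) uses the same substrates for flavonoids, and both enzymes depend on the upstream steps of phenylalanine ammonia-lyase (PAL), cinnamate 4-hydroxylase (C4H) and 4-coumarate-CoA ligase (4CL). Grapevine carries its stilbene synthases as tandem copies of very similar sequence, which are best known for their induction by fungal attack, wounding and ultraviolet light. MYB14 and MYB15 are transcription factors of the MYB family that activate stilbene synthase promoters in grapevine.

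RNA of terminal buds was sequenced in 3 libraries of 2X and 3 of 4X. The 4X vines had been made from tissue culture plantlets of the same diploid with colchicine, so both groups go back to the same diploid and differ by ploidy and by this treatment, which cannot be told apart. Both were grown in 1 vineyard under the same care, and the buds were taken about a week before those of 4X abscised. At least 3 terminal buds were pooled for each library, but the sources used here do not say whether the 4X libraries came from separate induced lines. Expression is given as FPKM, fragments mapped to a gene scaled by its transcript length and by the fragments mapped in the library, as deposited. In such bulk samples, fewer cells of a type and less RNA per cell cannot be told apart.

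KNAP2, a homeobox gene of the kind that marks shoot meristems, had 87.3, 63.6 and 80.8 FPKM in 2X replicates 1, 2 and 3 and 56.8, 53.6 and 43.2 FPKM in 4X replicates 1, 2 and 3. This marker was thus lower in every 4X library than in any 2X library, a pattern found in 8.85% of the genes tested. The paper already reports KNAP2 among the auxin response genes decreased in 4X, so this direction was known beforehand. A difference in tissue make-up is not shown by this 1 gene, and its part in the results below was not tested. The depth of the libraries relative to 2X replicate 1 was read from ratios of the smallest values of the table. It lay between 0.978 and 1.08, with the highest estimate for 4X replicate 2. Only ratios near 1 entered this estimate, so a large difference in depth could not show. In a principal component analysis, PC1 carried 38.1% of the variance and placed 4X replicate 1 at -15.6, beside the 2X libraries (-22.8 to -18.6) and away from 4X replicates 2 and 3 (39.9 and 37.1). Results are therefore also given without 4X replicate 1 where this changed them.

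In the chromosome 16 cluster, 0 of 39 members reached a mean of 1 FPKM over the 6 libraries, the minimum set for testing a gene. The member with the highest mean was VIT_16s0100g00750, with 0.274 FPKM, and 66.9% of all genes listed had a higher mean than this. The highest single value of the cluster was 0.596 FPKM, for VIT_16s0100g00860 in 4X replicate 2. Of the 39 members, 32 were above 0 in at least 1 library, 4 were above 0 in all 6 libraries and 7 were listed at 0 throughout. The expression was spread over many copies, and the 3 highest members made up 26.7% of the cluster's summed mean.

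**Figure D1:**
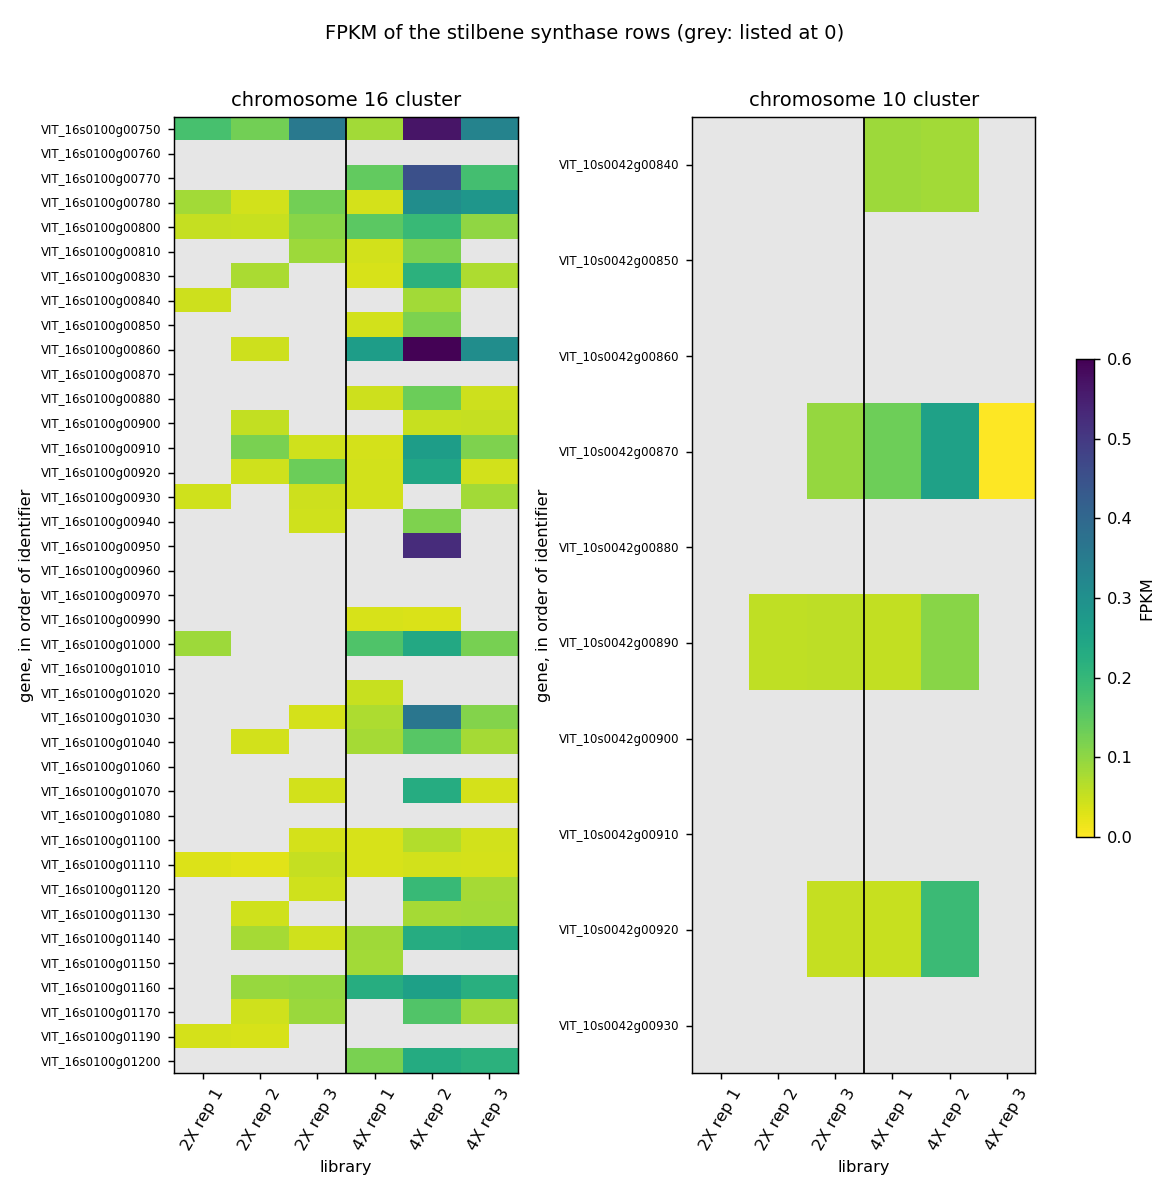
FPKM of each stilbene synthase row (vertical axis, in order of identifier) in each library (horizontal axis, 2X left and 4X right of the line), with colour for FPKM from 0 to 0.6 and grey for rows listed at 0. The 4X columns of the chromosome 16 cluster hold more coloured cells than the 2X columns. Of 39 cells, 8, 15 and 16 are coloured in 2X replicates 1, 2 and 3, and 23, 28 and 23 in 4X replicates 1, 2 and 3.

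At this low level, the summed values of the chromosome 16 cluster were higher in 4X. Near-identical copies can exchange reads, so the sum over the cluster was taken first, since it depends less on how reads were shared among copies. The summed FPKM was 0.556, 0.924 and 1.39 in 2X replicates 1, 2 and 3. It was 1.96, 6.28 and 2.97 in 4X replicates 1, 2 and 3. Every 4X library was thus above every 2X library, but 4X replicate 1 was nearer to 2X replicate 3 than to 4X replicate 2. The means were 0.958 ± 0.419 FPKM in 2X, against 3.74 ± 2.26 FPKM in 4X (SD, n = 3), a ratio of 3.90. The ratio ranged from 2.58 without 4X replicate 2, the library that held the highest sum, to 5.05 without 2X replicate 3. Without 4X replicate 1 it was 4.83. Over the 4 members above 0 in all 6 libraries alone, the ratio was 1.76 and the ploidies overlapped. This smaller sum was 0.343, 0.247 and 0.646 FPKM in 2X replicates 1, 2 and 3 and 0.309, 1.11 and 0.756 FPKM in 4X replicates 1, 2 and 3. The depth of 4X replicate 2 was 1.08 times that of 2X replicate 1 by the estimate above, which could not show a large difference. The part of depth in the sum was not tested. A sum over chosen members was not given a p-value.

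**Figure D2:**
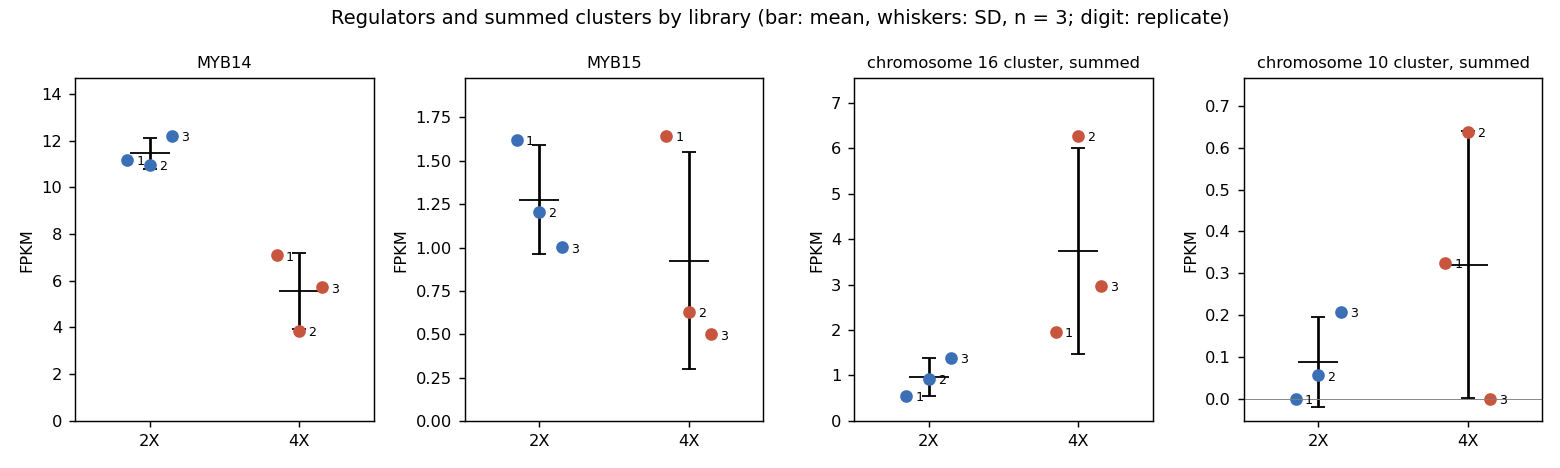
FPKM (vertical axis) of MYB14, of MYB15 and of the summed clusters in 2X and 4X. Points are libraries with their replicate number, the bar is the mean and the whiskers the SD (n = 3). The groups do not overlap for MYB14, which is lower in 4X, and for the chromosome 16 sum, which is higher in 4X, whereas they overlap for MYB15 and the chromosome 10 sum.

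The direction was shared by most members of the chromosome 16 cluster. Of the 39 members, 23 were above 0 in both ploidies, and the mean of all 23 was higher in 4X. All 32 members above 0 lay between 0 and 0.3 FPKM in mean, a range that held 3305 genes of the table. Of the 2210 of these genes that were above 0 in both ploidies, 50% had a higher mean in 4X. The other 8 members above 0 in 4X and VIT_16s0100g01190, above 0 only in 2X, are left out of this count because their direction was fixed by being listed at 0 in one ploidy. In 9 of the 32 members above 0 every 4X library was above every 2X library, and in 0 every 4X library was below. The 9 include VIT_16s0100g00770, VIT_16s0100g00880 and VIT_16s0100g01200, which were listed at 0 in every 2X library. Genes of this kind are also counted in the shares that follow. Of the 3305 genes of this range, 5.51% had every 4X library above and 4.39% below. With any single library left out, 9 to 13 members had every 4X library above, and the share of genes in this range was then between 7.78% and 10.4%. It was 13 members against 10.4% of genes without 4X replicate 1. The members are copies that share reads, so they are not independent of each other.

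VIT_16s0100g00750, the first member of the cluster, had 0.176, 0.129 and 0.358 FPKM in the 2X libraries and 0.0835, 0.566 and 0.332 FPKM in the 4X libraries, replicates 1, 2 and 3 each. This member, the highest of the cluster in every 2X library, overlapped between the ploidies. VIT_16s0100g00860 was listed at 0, 0.0452 and 0 FPKM in 2X, against 0.266, 0.596 and 0.306 FPKM in 4X. VIT_16s0100g00770 was listed at 0 in every 2X library and at 0.145, 0.454 and 0.179 FPKM in 4X. For both of these members all 4X libraries were above all 2X libraries, and 4X replicate 2 was the highest.

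VIT_16s0100g01160 had 0, 0.0920 and 0.0967 FPKM in 2X, against 0.226, 0.259 and 0.223 FPKM in 4X, the most even of the named members across the 4X libraries. VIT_16s0100g01140 had 0, 0.0809 and 0.0428 FPKM in 2X, against 0.0852, 0.229 and 0.236 FPKM in 4X. VIT_16s0100g01000 had 0.0869, 0 and 0 FPKM in 2X, against 0.165, 0.237 and 0.123 FPKM in 4X. These members did not overlap between the ploidies either, although the gap of VIT_16s0100g01140 was only that between 0.0809 and 0.0852 FPKM. VIT_16s0100g00780 had 0.0834, 0.0404 and 0.128 FPKM in 2X, against 0.0393, 0.306 and 0.286 FPKM in 4X. VIT_16s0100g00800 had 0.0522, 0.0507 and 0.107 FPKM in 2X, against 0.151, 0.196 and 0.10 FPKM in 4X. Both overlapped between the ploidies: 4X replicate 1 was the lowest of all libraries for VIT_16s0100g00780, and 4X replicate 3 lay within the range of 2X for VIT_16s0100g00800.

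The other 31 members of the cluster had means from 0 to 0.0983 FPKM. Of the 39 members, 8 were above 0 only in libraries of 4X, 1 only in libraries of 2X and 23 in both ploidies. VIT_16s0100g00950 stood out among those found only in 4X and was singled out after its values were seen. It had 0.523 FPKM in 4X replicate 2 and was listed at 0 in the other 5 libraries. In 23 of the 32 members above 0 the highest value was that of 4X replicate 2. This count and those of members above 0 in 1 ploidy only were not set against other genes as low. They are therefore given as a description and not as a result about the members.

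The values were of a size that few fragments could give. In the 32 members above 0, the smallest value above 0 of each had a median of 0.0430 FPKM and middle quartiles of 0.0397 and 0.0506 FPKM. Of the 81 other values above 0 in the cluster, 62 were under 3.5 times the smallest value of the same member, and 51 of these lay within 10% of a whole multiple of it. The highest reached 13.2 times. The 10% was taken of the multiple itself, and the share expected for values without such steps was not computed. Where whole fragments are counted, such a step could be what 1 fragment is worth. Most values would then correspond to few fragments, but the table holds no counts and their number is unknown. A difference of 1 step between single libraries was therefore not readable as a difference in expression.

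More members were listed above 0 in 4X as well. The number was 8, 15 and 16 of 39 in 2X replicates 1, 2 and 3, and 23, 28 and 23 of 39 in 4X replicates 1, 2 and 3. Each 4X library thus had more members above 0 than any 2X library, with the 8 members above 0 only in 4X counted. Those members could add to the 4X counts alone. Over the 23 members above 0 in both ploidies the groups were not apart, since 4X replicate 1 was not above 2X replicate 3. As shares of the 32 members above 0, these were 25%, 46.9% and 50% in 2X and 71.9%, 87.5% and 71.9% in 4X. The 3305 genes with a mean above 0 and under 0.3 FPKM were set beside them, and these also include genes above 0 in only 1 ploidy. Of these genes, 55.3%, 56.6% and 55.5% were above 0 in 2X, and 56.8%, 59.3% and 60.4% in 4X. The ploidies were thus in the same order over these genes, with a smaller gap.

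Exact zeros were read with care, since a 0 can be the outcome of how reads were shared among copies. The zeros of the cluster stood beside values of few steps, and such a 0 is not shown to be an absence of the transcript.

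No stilbene synthase row could be called in the main test, since none reached its minimum. Without the minimum of 1 FPKM, 36 members of both clusters were tested with limma and 0 were called at an adjusted p under 0.05, as were 0 of all 23243 genes (0% in either direction). At an unadjusted p under 0.05, 7 of the 36 members were higher in 4X and 0 lower, against 7.65% of all genes higher. The share of all genes lower in this fit was not computed. The 7 members are 19.4% of those tested. They include VIT_16s0100g00770 and VIT_16s0100g01200, listed at 0 in every 2X library, which could only come out higher. Genes of this kind are also counted among all genes. The smallest adjusted p among the 36 was 0.176 (limma). The median log2 fold change of the 36 was 0.09 on the log2(FPKM + 1) scale, which understates changes at this level. The median of all genes in this fit was 0.01.

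The chromosome 10 cluster was lower still. Of its 10 members, 6 were listed at 0 in every library. The sum was 0, 0.0567 and 0.208 FPKM in 2X replicates 1, 2 and 3 and 0.325, 0.638 and 7.76e-05 FPKM in 4X replicates 1, 2 and 3. The ploidies overlapped, since 4X replicate 3 lay below 2X replicates 2 and 3. The means were 0.0881 ± 0.107 FPKM in 2X, against 0.321 ± 0.319 FPKM in 4X (SD, n = 3), and each SD was about as large as its mean. The ratio of the means was 3.64. It ranged from 1.85 without 4X replicate 2 to 11.3 without 2X replicate 3.

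VIT_10s0042g00870 was the highest member on chromosome 10, with 0, 0 and 0.0947 FPKM in 2X, against 0.132, 0.256 and 7.76e-05 FPKM in 4X. The last of these values is far below the other values above 0 of this gene, so it does not correspond to a whole fragment. VIT_10s0042g00920 had 0, 0 and 0.0536 FPKM in 2X, against 0.050, 0.191 and 0 FPKM in 4X. VIT_10s0042g00890 had 0, 0.0567 and 0.0594 FPKM in 2X, against 0.0559, 0.108 and 0 FPKM in 4X. All 3 were above 0 in 2X replicate 3 and highest in 4X replicate 2, the library that was highest for the chromosome 16 sum too. A difference between the ploidies was not detectable in this cluster at this depth.

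Most genes next to the clusters were expressed above them. VIT_16s0100g00730, next but 1 before the chromosome 16 cluster, had between 14.2 and 18.3 FPKM, and VIT_16s0100g01210, the first row after it, had between 19.1 and 31.1 FPKM. VIT_16s0100g00740, directly before the cluster, was at 0.423 to 1.77 FPKM. Among the 82 other rows with the prefix VIT_16s0100g, 48 were tested, and limma called 0 higher and 0 lower. Every 4X library was above every 2X library in 5 of the 48 and below in 1, against 11.2% and 8.85% of all genes tested. Their median log2 fold change was 0.06, and that of all genes tested was 0.01. Of the 102 other rows with the prefix VIT_10s0042g, 44 were tested, 0 were called, every 4X library was above every 2X library in 1 and below in 4, and the median was 0.01. At an unadjusted p under 0.05, 1 row was higher around the chromosome 16 cluster, and 1 was higher and 1 lower around that on chromosome 10, against 7.79% higher and 6.53% lower of all genes tested.

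MYB14 was expressed well above the cluster whose promoters its protein is known to activate, and it was lower in 4X. It had 11.2, 10.97 and 12.2 FPKM in 2X replicates 1, 2 and 3, and 7.09, 3.85 and 5.71 FPKM in 4X replicates 1, 2 and 3. Every 4X library lay below every 2X library, a pattern found in 8.85% of the genes tested. The means were 11.5 ± 0.666 FPKM in 2X, against 5.55 ± 1.63 FPKM in 4X (SD, n = 3), a ratio of 0.484. The log2 fold change on the log2(FPKM + 1) scale was -0.96 (SE 0.19, 95% confidence interval -1.42 to -0.50). The unadjusted p of limma was 0.00177, rank 241 of the 18119 genes tested, and the adjusted p was 0.133. MYB14 was thus not called. The exact permutation test of 3 libraries against 3 gave p = 0.1, the smallest it allows.

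MYB14 was called in 2 of 15 fits, that without 4X replicate 1 and that with array weights. 4X replicate 1 had the highest MYB14 level of the 4X libraries. Without this library the log2 fold change was -1.13 and the adjusted p 0.0235 (limma). In that fit 3.14% of the genes tested were called lower, against 0.0276% with all libraries, so the change was not particular to MYB14. With any other library left out the log2 fold change lay between -0.99 and -0.76, and the adjusted p between 0.238 and 0.440. When limma weighted the libraries by how well each matched its group (array weights), the log2 fold change was -0.90 and the adjusted p 0.00800, with 11% of all genes called lower. In each of the 15 fits the value was negative.

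**Figure D3:**
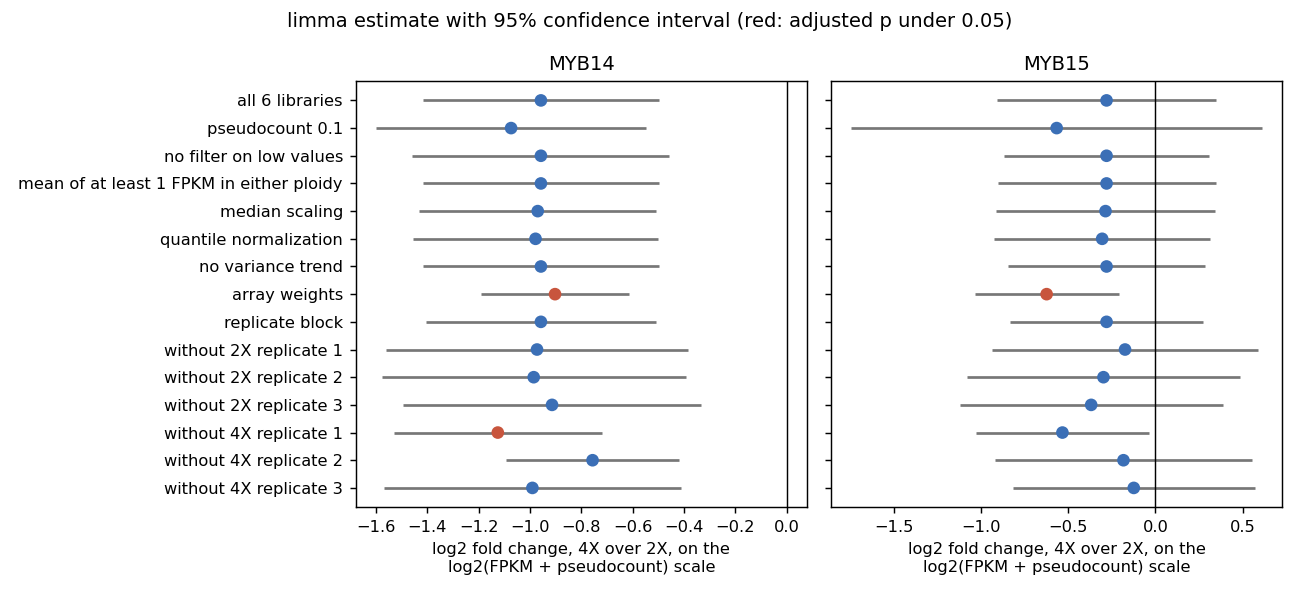
Log2 fold change of 4X over 2X (horizontal axis, log2 of FPKM plus the pseudocount) of MYB14 and MYB15 in each limma fit (vertical axis), with lines for the 95% confidence interval and red for an adjusted p under 0.05. MYB14 stays between -1.13 and -0.76 in all fits and is called in 2 of them, whereas MYB15 is called only with array weights.

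MYB15, the second regulator, was near the minimum for testing. It had 1.62, 1.21 and 1.00 FPKM in 2X replicates 1, 2 and 3, and 1.65, 0.629 and 0.50 FPKM in 4X replicates 1, 2 and 3. The ploidies overlapped, since 4X replicate 1 was the highest of all 6 libraries while 4X replicates 2 and 3 were the lowest. The means were 1.28 ± 0.315 FPKM in 2X, against 0.925 ± 0.628 FPKM in 4X (SD, n = 3). The log2 fold change was -0.28 (SE 0.26, 95% confidence interval -0.91 to 0.35, adjusted p = 0.693 by limma). The exact permutation test gave p = 0.4. Without 4X replicate 1 the log2 fold change was -0.53 with an adjusted p of 0.206, and with array weights it was -0.62 with an adjusted p of 0.0426 (limma). It moved toward 0 without 2X replicate 1 (-0.17), 4X replicate 2 (-0.18) or 4X replicate 3 (-0.12). MYB13, listed as another MYB gene of this group, was at 0.504 FPKM or less in every library and was not tested.

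Side by side, MYB14 and the chromosome 16 sum were ordered in opposite ways within 4X. 4X replicate 2 had the lowest MYB14 level (3.85 FPKM) and the highest sum (6.28 FPKM), and 4X replicate 1 had the highest MYB14 level (7.09 FPKM) and the lowest sum (1.96 FPKM). Within 2X the order was not reversed in this way, since 2X replicate 3 was the highest for both. With 3 libraries for each ploidy, and ploidies that do not overlap in either measure, a relation between these measures was not tested.

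The genes upstream of stilbene synthase and the competing CHS were abundant, with little difference between the ploidies. Their identifiers were listed from general knowledge of the grapevine genes and are not annotated in the table, so they are given by list. Of the 28 identifiers listed for PAL, C4H, 4CL, CHS and MYB13, 14 reached a mean of 1 FPKM and were tested, and limma called 0 of them higher (0.0607% of all genes tested) and 0 lower (0.0276%). At an unadjusted p under 0.05, 2 of the 14 were higher and 0 lower, against 7.79% and 6.53% of all genes tested, and with array weights 3 were called higher, as were 12.5% of all genes tested. The median log2 fold change of the 14 was -0.0015, that of all genes tested 0.01.

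The 3 CHS identifiers summed to 1965 ± 115 FPKM in 2X, against 2031 ± 347 FPKM in 4X (SD, n = 3), and the ploidies overlapped. By library the CHS sum ranged from 1632 FPKM in 4X replicate 2 to 2263 FPKM in 4X replicate 1. It was 3646 times the chromosome 16 stilbene synthase sum in 2X replicate 1 and 260.0 times in 4X replicate 2, the largest and the smallest of the 6 libraries. In the latter library the CHS sum was lowest and the stilbene synthase sum highest. How reads shared among stilbene synthase copies were counted is not given, so these ratios may be too large. The PAL list, of 16 identifiers, summed to 312 ± 24.6 FPKM in 2X, against 291 ± 42.6 FPKM in 4X. It was 498 ± 63.6 and 504 ± 86.1 FPKM for the 3 C4H identifiers, and 400 ± 10.5 and 416 ± 27.2 FPKM for the 5 of 4CL (SD, n = 3 each).

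The upstream lists were uneven within themselves. Of the PAL identifiers 4 were tested, and the one with the highest mean had 134 ± 22.9 FPKM in 2X, against 126 ± 16.9 FPKM in 4X. The highest C4H gene had 495 ± 64.3 FPKM in 2X, against 498 ± 85.7 FPKM in 4X. A second C4H gene of low expression had the largest log2 fold change of the 14 tested. It had 1.51, 3.11 and 3.48 FPKM in 2X, against 4.71, 6.04 and 6.65 FPKM in 4X, with a log2 fold change of 0.91 (SE 0.25) and an adjusted p of 0.203 (limma). This gene did not overlap between the ploidies but was not called.

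**Figure D4:**
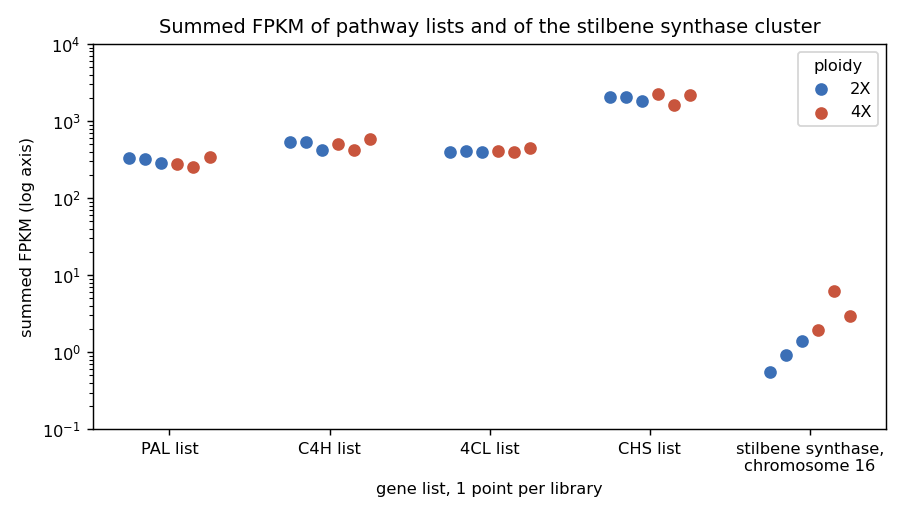
Summed FPKM (vertical axis, log scale) of the PAL, C4H, 4CL and CHS lists and of the chromosome 16 stilbene synthase cluster, with 1 point for each library (blue 2X, red 4X, in order of replicate). The enzyme lists lie between 255 and 2263 FPKM in every library, whereas the stilbene synthase sums lie between 0.556 and 6.28 FPKM.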

How the data were processed

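Reads were trimmed by the authors (FASTX-Toolkit), placed on the Ensembl Plants genome of V. vinifera by TopHat 2.0.14 with Bowtie2, and compared between ploidies with Cufflinks 2.2.1. The authors deposited FPKM for each gene and library, with 1 column per library and 0 columns left out. The genome build, the annotation version, the use of strand and the sharing of reads among copies are not given in the sources used here. A read shared among near-identical copies can move a value from one member to another. Whether such reads were left out or counted in part is not given either. The listed level of each copy, and of the sums, may therefore be too low.

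Libraries were grouped by the ploidy in the labels. The test was that of limma 3.58.1 (R 4.3.3), two-sided, for every gene whose mean over the 6 libraries reached 1 FPKM. Values entered it as log2(FPKM + 1), a pseudocount of 1, with a trend of variance on the mean. A call needed an adjusted p under 0.05 (Benjamini-Hochberg, over all genes tested). The test was checked on simulated data with independent noise and large planted changes, for genes at or above the minimum. The simulated data held no outlying library and no rows as low as the stilbene synthases. The check therefore does not cover these. The p-values measure the spread between the libraries. Summaries used Python 3.11.15 with pandas 2.3.3, and plots matplotlib 3.10.9. Alternatives were another pseudocount and filter, median and quantile scaling, no trend, array weights, a replicate block and each library left out.

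The members and lists were chosen with earlier results of these data known. Named are both regulators, the 8 highest members on chromosome 16 and the 3 highest on chromosome 10. The highest gene of the PAL and C4H lists and the summed CHS and 4CL lists are given without identifiers, since the RefSeq table held 0 of the identifiers. It lists a MYB14 on chromosome 7, as does the identifier used here. The file holds no counts, so no interval for counting error is given.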

Additional observations from a re-analysis of the deposited data

How the results depend on the processing

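Over all genes, 11 were called higher and 5 lower. There were 0 and 0 with no filter on low values and 0 and 0 with the replicate block, and 2271 and 1988 with array weights. Leaving out 1 library gave 0 to 185 called higher and 0 to 569 lower, and the highest of both were without 4X replicate 1. Of the pathway list 3 genes were called with array weights. The log2 fold change of MYB14 was -0.90 with array weights and -1.13 to -0.76 with 1 library left out, and was called with array weights and without 4X replicate 1. MYB15 had -0.62 with array weights, where it was called. The ratio of the chromosome 10 sums ranged from 1.85 to 11.3 with 1 library left out and could not be given for members above 0 in all libraries, since there were 0. The chromosome 16 ratio of 3.90 became 1.76 over members above 0 in all libraries. Stilbene synthase rows were tested only with no filter on low values. The direction of MYB14, MYB15 and both sums did not change in any. Leaving out libraries for the count of members with every 4X library above every 2X library was chosen after seeing the data.

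The deviations of same-numbered libraries from their group means correlated at -0.01, -0.05 and 0.09 across genes. Those of libraries with other numbers lay between -0.13 and 0.13. No pairing by number was thus seen, although a shared day or batch was not tested. With the replicate block the adjusted p of MYB14 was 0.190 at the same log2 fold change of -0.96 (limma). The low depth at the stilbene synthases limits every statement on a single member.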
